A study of Drosophila melanogaster with 21 samples.

Results

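The Drosophila EGF receptor pathway from receptor to nucleus was followed through 10 genes: Egfr, Sos, Ras85D, Raf, Dsor1, rl, aop, pnt, sty and aos. The 10 were chosen by name as rows of both deposited tables, out of 17555 genes listed, and each was measured in all 7 groups and tested in all 5 comparisons. The RNA came from DL1, a cultured Drosophila melanogaster cell line, with 3 samples per group and 21 in all. In the RNAi experiment, wild-type DL1 cells took up 20 µg of double-stranded RNA (dsRNA) in a 60-min bath and were harvested 48 h later. The dsRNA matched Pum (Pumilio, an RNA-binding repressor), Not1 (the scaffold of the CCR4-NOT deadenylase) or Pop2 (a catalytic deadenylase subunit), with Escherichia coli LacZ as the non-targeting control. In the knockout experiment, PumKO1 and PumKO2, each a clonal isolate of DL1 with the Pumilio gene knocked out, were compared with WT, the wild-type line they came from, and no dsRNA treatment is labelled for them. The spread within PumKO1 or PumKO2 is that of 1 isolate. The labels call the samples biological replicates without saying what separates them, so p-values measure the spread between these samples only.

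In this pathway a ligand of the Spitz family binds Egfr, a receptor tyrosine kinase, and the adaptor Drk brings the exchange factor Sos to the membrane. Sos loads the GTPase Ras85D with GTP, and a kinase relay of Raf, Dsor1 (the MEK kinase) and rl (rolled, the ERK-type MAP kinase) carries the signal to the nucleus. There rl phosphorylates a pair of ETS proteins, the activator pnt (Pointed) and the repressor aop (anterior open, also called Yan), while aos (Argos, a secreted ligand trap) and sty (Sprouty, an intracellular inhibitor) are induced in many tissues and dampen the signal. CCR4-NOT shortens poly(A) tails and so promotes mRNA decay, and Pumilio recruits it to mRNAs through elements in the 3′ untranslated region (3′UTR).

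Values are normalized counts, that is, reads divided by a library size factor. The deposited tables give group means, from which the whole reads behind each mean were recovered for the 3 libraries of a group, lettered A (largest size factor) to C (smallest) without a match to replicate numbers. All 10 genes were recovered in all 7 groups, with 40 to 14304 reads per gene and library. The recovered libraries held 1909407 to 10430122 reads. The labels were checked on the targeted genes first. Pum had 533, 525 and 569.6 normalized counts in the Pum RNAi libraries, against 1665, 1421 and 2178 in the LacZ RNAi libraries. Not1 had 1718, 1702 and 1824 in the Not1 RNAi libraries, against 20060.4, 18085 and 12344 in the LacZ RNAi libraries, and Pop2 had 26.3, 25.8 and 34.1 in the Pop2 RNAi libraries, against 609, 642 and 477 in the LacZ RNAi libraries. Each target lay below its control in every library. Some targets also changed in other groups, at an adjusted p below 0.05 by the authors' DESeq2 Wald test. Pum RNA rose after Not1 RNAi (log2 fold change 1.42 ± 0.39) and Not1 RNA after Pop2 RNAi (0.75 ± 0.18). Pum had 2927, 2570 and 8624 normalized counts in the Not1 RNAi libraries, so library C was 3.14-fold above the mean of the other 2. Pop2 RNA rose in PumKO1 (0.57 ± 0.08) and PumKO2 (0.66 ± 0.08). Pum RNA was still present in the knockout libraries, at 1064, 969 and 1074 in PumKO1 and 2186, 2087 and 2093 in PumKO2, against 3129, 3139 and 2820.4 in WT. The sources used here do not give the deleted part of the gene, so RNA counts do not check the knockout labels. In 2 RNAi groups library C stood apart. Across 7139 genes, LacZ RNAi library C correlated with libraries A and B at 0.926 and 0.924, against 0.986 between those 2. Not1 RNAi library C correlated at 0.934 and 0.935, against 0.993 between libraries A and B. For the 10 genes, calls after Not1 RNAi or Pop2 RNAi are given with both libraries, from the deposited values. They are also given without both, from limma on the recovered reads, which leaves 2 libraries each in LacZ RNAi and Not1 RNAi. For the targets, the markers and the genes of the pathway lists below, single calls come from the deposited values alone. Only totals over the pathway lists are given without both libraries. The labels name no cell type. Of 13 hemocyte (blood cell) markers, 8 had at least 10 normalized counts in LacZ RNAi and 10 in WT, led by the GATA factor srp at 4358 and 4904. The hemocyte markers Hml and NimC1 had 30.4 and 6.02 in LacZ RNAi and 761 and 19.1 in WT. All 5 epithelial markers reached 10 in both groups, led by sdt at 1549 and 3862. Of 7 neuron markers, 2 in LacZ RNAi and 3 in WT reached it, led by elav at 1094 and 1082. Of 6 germline markers, 2 did so in both. The muscle markers summed to 18.5 to 60.1 normalized counts over the 7 groups.

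The 10 genes lie on 5 chromosome arms of the dm6 build. Egfr spans 2R:21522420-21559977 on the plus strand and rl spans 2R:1071462-1125927 on the plus strand. On 2L, Sos spans 13813816 to 13819824 (plus) and aop spans 2156484 to 2178754 (minus). On 3R, Ras85D spans 9510561 to 9513067 (minus) and pnt spans 23290231 to 23346167 (minus). On 3L, sty spans 3401153 to 3424935 (minus) and aos spans 16470386 to 16483650 (minus). On the X, Raf spans 2295466 to 2343870 (plus) and Dsor1 spans 9247342 to 9250037 (plus). The longest annotated 3′UTR had a median of 930 bases over the 10 genes, against 309 bases over 8348 genes with one. It was shortest in Dsor1 (151 bases) and Raf (439 bases), and longest in rl (5177 bases), sty (1803 bases) and aop (1681 bases). Only aop shares exon sequence with another gene, CG15382 on the opposite strand, which had 3.69 to 27.0 normalized counts in the 7 groups. The sources used here do not give the strand setting of the counting, and aop itself averaged 6899 in Not1 RNAi, its highest mean, and 1364 in LacZ RNAi, its lowest.

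In the control cells the inhibitor sty was the most abundant of the 10 per kilobase (kb) of gene model and Egfr itself the least. In LacZ RNAi, sty had 1403 normalized counts per kb, followed by Ras85D at 606, pnt at 376 and aop at 250.1. Sos at 158, aos at 142 and Dsor1 at 93.2 were intermediate, and Raf at 54.2, rl at 39.2 and Egfr at 30.8 were lowest. The library ranges of aop and Sos, of Sos and aos, and of rl and Egfr overlapped, while the other neighbours in that order did not. In WT the order was nearly the same, with sty at 1350.1 and Egfr at 56.6 normalized counts per kb, aos above Sos, and only the ranges of aop and aos overlapping. Among genes with at least 1 normalized count, sty lay above 96.1% of them per kb in LacZ RNAi and Egfr above 34.9%. Sty kept the first rank in all 7 groups. Pnt ranked 5th in both knockout lines, against 3rd in WT, and aos ranked 3rd in PumKO1 and 4th in PumKO2, against 5th in WT.

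**Figure D1:**
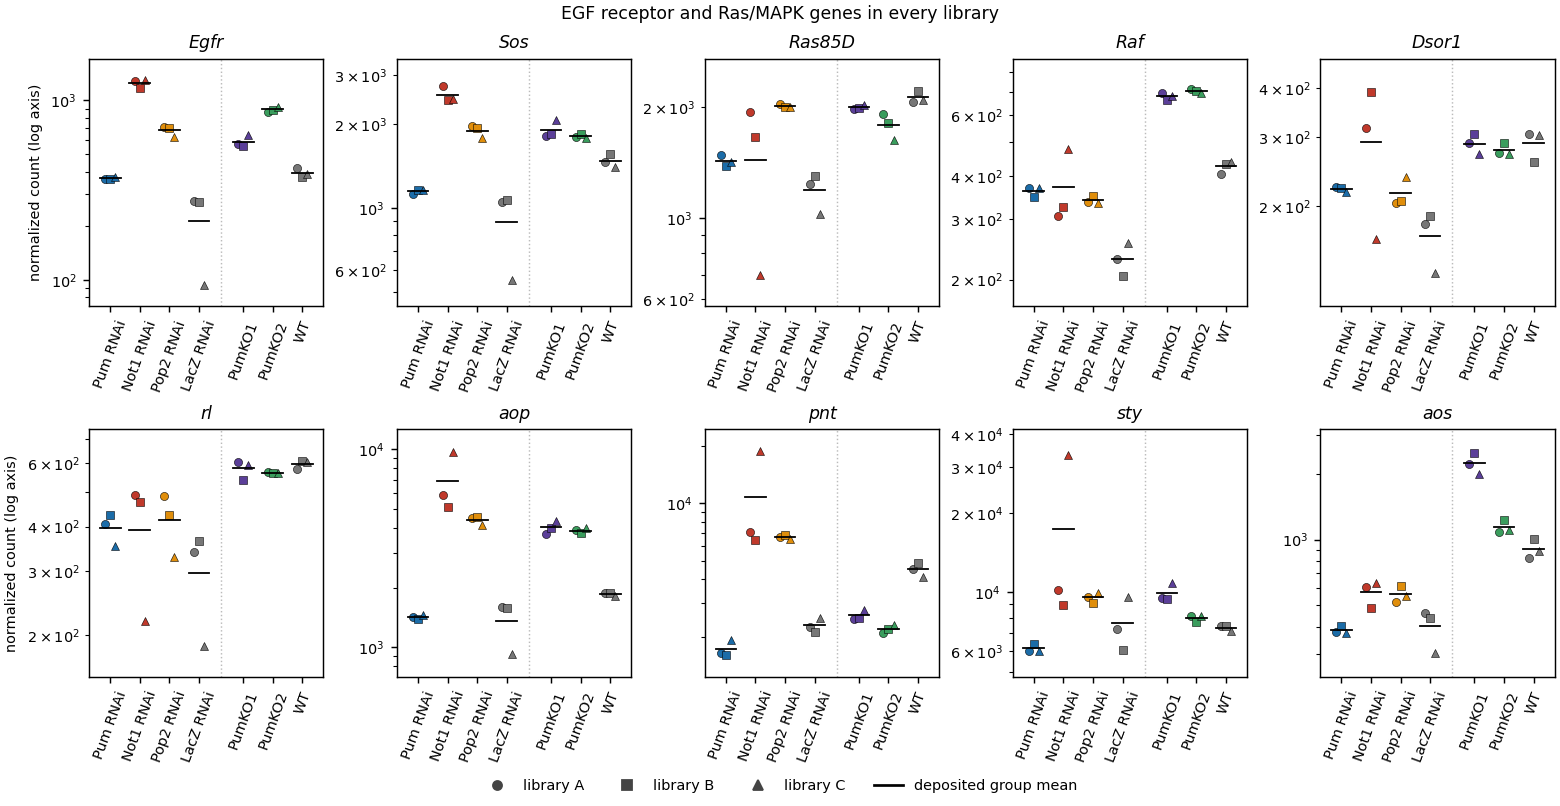
Normalized counts (log axis) of the 10 genes in each recovered library of the 7 groups, with circles, squares and triangles for libraries A, B and C and a line at the deposited group mean. The RNAi groups stand left of the dotted line and the knockout experiment right of it, and the scales of the 2 differ because their tables were normalized separately.

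Most of the pathway rose when Not1 or Pop2 of the deadenylase complex was depleted. After Not1 RNAi, 8 of the 10 genes rose and none fell, where 25.7% of 9051 genes tested rose and 24.2% fell, by the authors' DESeq2 Wald test at an adjusted p below 0.05. After Pop2 RNAi, 7 rose and none fell, where 18.8% of genes tested rose and 20.1% fell (39.0% changed). The median log2 fold change of the 10 was 1.01 after Not1 RNAi and 0.67 after Pop2 RNAi, against 0.01 and -0.05 over all genes tested, per the authors' deposited table. Pum RNAi raised 1 of the 10, Raf, where 0.512% of 8596 genes tested rose (0.733% changed). In PumKO1, 6 rose and 1 fell, where 22.9% of genes tested rose and 25.5% fell (48.4% changed). In PumKO2, 5 rose and 2 fell, where 21.3% rose and 23.5% fell (44.8% changed). The shares called in the knockout lines and after loss of Not1 or Pop2 are to be read against these high backgrounds. Each call was also read under every limma setting on the recovered reads, 16 for the RNAi table (other scaling or pseudocount, each library left out, and both libraries that stood apart left out) and 12 for the knockout table. Of the 30 calls, 23 were kept under all settings of their table, among them every call in the knockout lines and those of Egfr, Sos, aop and pnt after Not1 RNAi and Pop2 RNAi. The other 7 were lost under some settings and are described with their genes.

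Counted by libraries, 6 of the 10 genes lay above every LacZ RNAi library in every Not1 RNAi library (25.3% of all genes tested did) and 8 of the 10 did so in the Pop2 RNAi libraries (26.0%). Dsor1 and sty were called higher after Not1 RNAi although their libraries overlapped. In the Pum RNAi libraries 5 genes lay above and 1 lay below every LacZ RNAi library, against 10.7% and 9.72% of all genes tested. In each knockout line 6 genes lay above every WT library (26.9% of genes in both lines), and 2 in PumKO1 and 3 in PumKO2 lay below (31.9% and 30.8%).

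**Figure D2:**
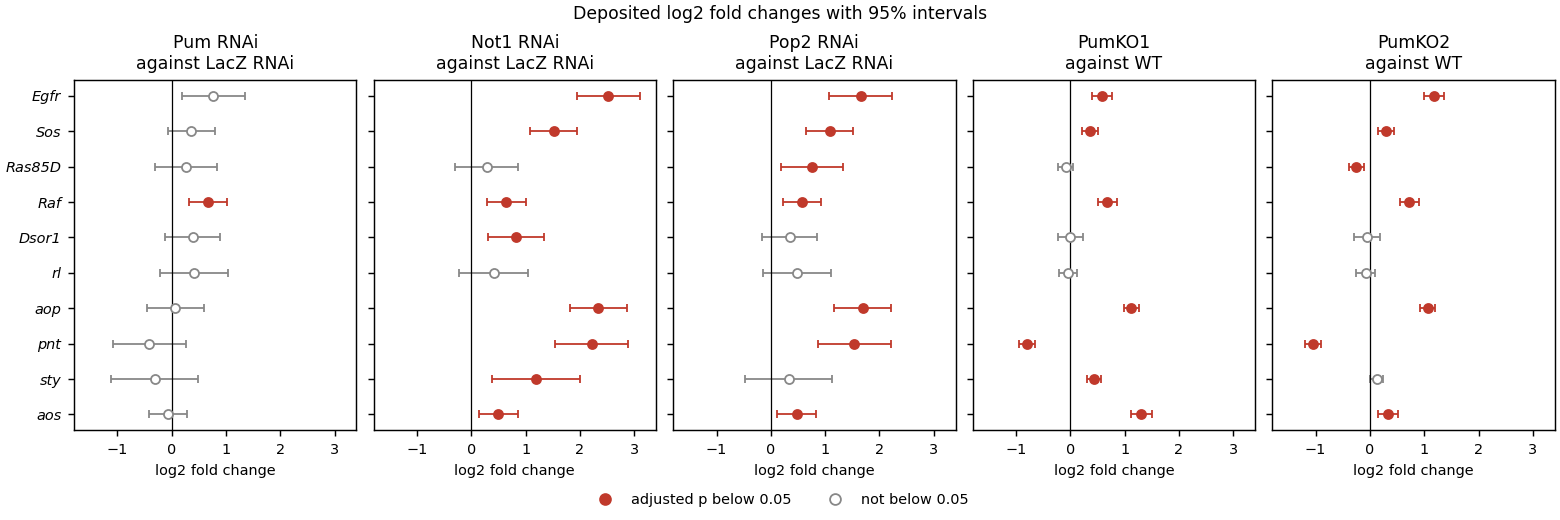
Log2 fold changes of the 10 genes in the 5 comparisons, from the authors' deposited tables, with 95% intervals and filled points where the adjusted p is below 0.05. Egfr, Sos, Raf, aop, pnt and aos are filled and to the right of 0 after both Not1 RNAi and Pop2 RNAi, and pnt is filled and to the left of 0 in both knockout lines.

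Egfr, the receptor, rose after loss of Not1 or Pop2 and in both knockout lines. It had 1282, 1169 and 1297 normalized counts in the Not1 RNAi libraries and 710.4, 707 and 628 in the Pop2 RNAi libraries, against 276, 273 and 93.3 in the LacZ RNAi libraries. All libraries of both knockdowns lay above all LacZ RNAi libraries, of which library C was about 3-fold below the other 2. The log2 fold change per the authors' deposited table was 2.52 ± 0.30 after Not1 RNAi (SE, DESeq2 adjusted p = 5.45e-16), a 5.75-fold rise. After Pop2 RNAi it was 1.65 ± 0.30 (adjusted p = 3.6e-07) per the authors' deposited table, a 3.14-fold rise. Without LacZ RNAi library C and Not1 RNAi library C, limma on the recovered reads gave 2.15 ± 0.10 after Not1 RNAi and 1.31 ± 0.09 after Pop2 RNAi. The Pum RNAi libraries held 367, 364 and 375, also above every LacZ RNAi library, but the log2 fold change of 0.76 ± 0.30 per the authors' deposited table missed the threshold (adjusted p = 0.31). In PumKO1, Egfr had 571, 556 and 638 normalized counts and in PumKO2 866, 889.9 and 916, against 417, 372 and 391 in WT. Every PumKO2 library lay above every PumKO1 library, and those above every WT library. The log2 fold changes per the authors' deposited table were 0.58 ± 0.09 in PumKO1 (adjusted p = 5.45e-09) and 1.18 ± 0.09 in PumKO2 (adjusted p = 5.16e-35).

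Sos, the exchange factor that activates Ras, rose in 4 of the 5 comparisons. It had 2747, 2444 and 2471 normalized counts in the Not1 RNAi libraries and 1962, 1934 and 1784 in the Pop2 RNAi libraries, against 1051, 1064 and 553 in the LacZ RNAi libraries. The groups did not overlap, and LacZ RNAi library C was again the lowest of its group. The authors' deposited table gave log2 fold changes of 1.52 ± 0.22 after Not1 RNAi (adjusted p = 4.85e-11) and 1.08 ± 0.22 after Pop2 RNAi (adjusted p = 6.65e-06). Without LacZ RNAi library C and Not1 RNAi library C, limma gave 1.29 ± 0.10 and 0.84 ± 0.09. Pum RNAi libraries had 1122, 1156 and 1162, a log2 fold change of 0.36 ± 0.22 per the authors' deposited table that did not pass (adjusted p = 0.643). The rises in the knockout lines were small, with 1817, 1842 and 2067 normalized counts in PumKO1 and 1791, 1845 and 1790.0 in PumKO2, against 1464, 1563 and 1406 in WT. Without overlap between groups, log2 fold changes were 0.37 ± 0.07 in PumKO1 (adjusted p = 2.68e-06) and 0.29 ± 0.07 in PumKO2 (adjusted p = 0.000323) per the authors' deposited table.

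Ras85D, the Ras GTPase, changed less. It had 2033, 2001 and 1995 normalized counts in the Pop2 RNAi libraries, against 1233, 1302 and 1024 in the LacZ RNAi libraries, a log2 fold change of 0.76 ± 0.29 per the authors' deposited table (adjusted p = 0.0279). That call was lost under 13 of the 16 limma settings, with an adjusted p of 0.0581 on all libraries and 0.128 without LacZ RNAi library C alone, and kept without both libraries that stood apart, at 0.66 ± 0.09 (adjusted p = 4.31e-06). In the Not1 RNAi libraries it had 1942, 1655 and 700.1. Libraries A and B lay above every LacZ RNAi library and library C below them all, and the log2 fold change of 0.28 ± 0.29 per the authors' deposited table did not pass (adjusted p = 0.445). When LacZ RNAi library C and Not1 RNAi library C were left out, limma called it higher, at 0.50 ± 0.10 (adjusted p = 0.000211). Pum RNAi libraries had 1478, 1383 and 1421, all above the LacZ RNAi libraries, with a log2 fold change of 0.27 ± 0.29 per the authors' deposited table (adjusted p = 0.82). In the knockout lines Ras85D had 1973, 1989.9 and 2031 normalized counts in PumKO1 and 1916, 1815 and 1623 in PumKO2, against 2062, 2217 and 2093 in WT. It fell by 0.25 on the log2 scale in PumKO2 per the authors' deposited table (SE 0.07, adjusted p = 0.00187), and the PumKO1 value of -0.09 ± 0.07 there did not pass (adjusted p = 0.322).

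Raf, the first kinase of the relay, was the only one of the 10 called in all 5 comparisons, always higher. It had 369.9, 348 and 369 normalized counts in the Pum RNAi libraries, 307, 326 and 478 in the Not1 RNAi libraries and 335, 349 and 334 in the Pop2 RNAi libraries, against 229.5, 205 and 256 in the LacZ RNAi libraries. Every library of the 3 knockdowns lay above every LacZ RNAi library. The authors' deposited table gave log2 fold changes of 0.67 ± 0.18 after Pum RNAi (adjusted p = 0.0293), 0.65 ± 0.18 after Not1 RNAi (adjusted p = 0.00115) and 0.57 ± 0.18 after Pop2 RNAi (adjusted p = 0.0049). Limma kept the Not1 RNAi call under all 16 settings and the Pop2 RNAi call under 12, and lost the Pop2 RNAi call without LacZ RNAi library B (adjusted p = 0.0692) and without any 1 of the Pop2 RNAi libraries. Without both libraries that stood apart it gave 0.54 ± 0.11 after Not1 RNAi and 0.64 ± 0.10 after Pop2 RNAi. The Pum RNAi call was lost under 14 of the 16. On all recovered libraries, limma gave 0.66 ± 0.17 with an adjusted p of 0.369, and without LacZ RNAi library C and Not1 RNAi library C it gave 0.74 ± 0.10 with an adjusted p of 0.000342. Raf had 696, 665 and 683 normalized counts in PumKO1 and 713, 704 and 697 in PumKO2, against 405, 434 and 439.6 in WT, again without overlap. Those rises were 0.68 ± 0.09 (adjusted p = 5.61e-14) and 0.73 ± 0.09 (adjusted p = 1.68e-15) on the log2 scale per the authors' deposited table.

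The 2 kinases below Raf moved less. Dsor1 had 317, 390.4 and 165 normalized counts in the Not1 RNAi libraries and 203, 206 and 237 in the Pop2 RNAi libraries, against 180.3, 188 and 135 in the LacZ RNAi libraries. Not1 RNAi library C, with 40 Dsor1 reads, fell among the LacZ RNAi libraries, while libraries A and B lay above them. The log2 fold change after Not1 RNAi was 0.82 ± 0.26 per the authors' deposited table (adjusted p = 0.00488), and 0.93 ± 0.13 by limma without LacZ RNAi library C and Not1 RNAi library C (adjusted p = 3.06e-06). Of the 16 limma settings 10 lost the call, among them scaling by total reads (adjusted p = 0.253) and leaving out LacZ RNAi library C alone (adjusted p = 0.104). After Pop2 RNAi it was 0.35 ± 0.26 per the authors' deposited table and did not pass (adjusted p = 0.296). Rl, the MAP kinase, had 491, 467 and 218 in the Not1 RNAi libraries and 488, 431 and 329 in the Pop2 RNAi libraries, against 341, 365 and 187 in the LacZ RNAi libraries. These groups overlapped, and the log2 fold changes of 0.41 ± 0.32 (adjusted p = 0.291) and 0.48 ± 0.32 (adjusted p = 0.239) per the authors' deposited table did not pass. Without the 2 libraries that stood apart, limma called rl higher after Not1 RNAi, at 0.44 ± 0.15 (adjusted p = 0.0121). After Pum RNAi the authors' deposited table gave 0.38 ± 0.26 for Dsor1 (adjusted p = 0.686) and 0.41 ± 0.32 for rl (adjusted p = 0.728), neither of which passed. In PumKO1 and PumKO2 the 95% intervals ran from -0.23 to 0.23 and from -0.29 to 0.18 for Dsor1, and from -0.21 to 0.13 and from -0.26 to 0.09 for rl, on the log2 scale of the authors' deposited table.

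The 2 ETS genes, which encode an activator and a repressor of the same target genes, both rose after loss of Not1 or Pop2 and moved in opposite directions in the knockout lines. The activator pnt had 7065, 6399.8 and 18701 normalized counts in the Not1 RNAi libraries and 6652, 6853 and 6522 in the Pop2 RNAi libraries, against 2261, 2126 and 2521 in the LacZ RNAi libraries. The repressor aop had 5877, 5097 and 9723 in the Not1 RNAi libraries and 4486, 4564 and 4156 in the Pop2 RNAi libraries, against 1597, 1576 and 919.8 in the LacZ RNAi libraries. For both genes the groups did not overlap, and Not1 RNAi library C was the highest library. For pnt, the log2 fold changes per the authors' deposited table were 2.22 ± 0.34 after Not1 RNAi (adjusted p = 9.1e-10) and 1.54 ± 0.34 after Pop2 RNAi (adjusted p = 5.51e-05). Those of aop were 2.33 ± 0.27 (adjusted p = 5.9e-17) and 1.69 ± 0.27 (adjusted p = 4.66e-09) per the authors' deposited table. With LacZ RNAi library C and Not1 RNAi library C left out, limma gave 1.62 ± 0.11 for pnt and 1.79 ± 0.10 for aop after Not1 RNAi, and 1.61 ± 0.10 and 1.47 ± 0.09 after Pop2 RNAi.

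After Pum RNAi neither ETS gene was called per the authors' deposited table. Pnt had 1646, 1612 and 1932 normalized counts in the Pum RNAi libraries, below every LacZ RNAi library, with a log2 fold change of -0.41 ± 0.34 (adjusted p = 0.743) per the authors' deposited table. Without LacZ RNAi library C and Not1 RNAi library C, limma called it lower, at -0.35 ± 0.10 (adjusted p = 0.0378). Aop had 1422, 1396 and 1453, between the low LacZ RNAi library C and the other 2, and a log2 fold change of 0.06 ± 0.27 (adjusted p = 0.964) per the authors' deposited table. In the knockout lines pnt fell, with 2477, 2525 and 2779 normalized counts in PumKO1 and 2085, 2189 and 2298 in PumKO2, against 4557, 4871 and 4102 in WT. Aop rose, with 3745, 4007 and 4364 in PumKO1 and 3917, 3756 and 3981 in PumKO2, against 1881, 1871 and 1811 in WT. No library of either knockout line overlapped WT for either gene. The authors' deposited table gave log2 fold changes of -0.80 ± 0.08 (adjusted p = 1.11e-24) in PumKO1 and -1.04 ± 0.08 (adjusted p = 1.72e-40) in PumKO2 for pnt. It gave 1.12 ± 0.07 (adjusted p = 1.16e-57) and 1.07 ± 0.07 (adjusted p = 1.27e-51) for aop, so per the authors' deposited table aop doubled in both lines, at 2.17-fold and 2.09-fold.

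The inhibitor aos changed most in PumKO1. It had 2221, 2499 and 2008 normalized counts in the PumKO1 libraries and 1086, 1232 and 1107 in the PumKO2 libraries, against 826, 1007 and 888 in WT. PumKO1 lay above PumKO2 in every library, and PumKO2 above WT. The log2 fold change per the authors' deposited table was 1.31 ± 0.10 in PumKO1 (adjusted p = 3.93e-41) and 0.33 ± 0.10 in PumKO2 (adjusted p = 0.0021). In the Not1 RNAi libraries aos had 604, 489 and 630.1 normalized counts and in the Pop2 RNAi libraries 517, 615 and 553, against 462, 438 and 302 in the LacZ RNAi libraries. Both passed, at 0.50 ± 0.18 (adjusted p = 0.0159) and 0.47 ± 0.18 (adjusted p = 0.0249) per the authors' deposited table. Scaling by total reads lost both calls in limma (adjusted p = 0.206 and 0.0701), and of the 16 limma settings 2 lost the Not1 RNAi call and 8 the Pop2 RNAi call. After Pop2 RNAi the adjusted p was 0.0815 without LacZ RNAi library C, while without both libraries that stood apart limma gave 0.27 ± 0.12 after Not1 RNAi (adjusted p = 0.0475) and 0.32 ± 0.11 after Pop2 RNAi (adjusted p = 0.0159). After Pum RNAi aos had 379, 401 and 376, within the LacZ RNAi range, and a log2 fold change of -0.07 ± 0.18 (adjusted p = 0.936) per the authors' deposited table.

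Sty, the other inhibitor, rose in PumKO1 and was called after Not1 RNAi. Its normalized counts were 9533, 9461 and 10856 in PumKO1 and 8129, 7736 and 8106 in PumKO2, against 7428, 7449.6 and 7148 in WT. Both lines lay above WT in every library, with log2 fold changes per the authors' deposited table of 0.44 ± 0.06 (adjusted p = 7.46e-11) in PumKO1 and 0.12 ± 0.06 (adjusted p = 0.117) in PumKO2. The Not1 RNAi libraries had 10174, 8919 and 33164 and the Pop2 RNAi libraries 9604, 9116 and 9972, against 7241, 6023 and 9632 in the LacZ RNAi libraries. Not1 RNAi library C was over 3-fold above the other 2 of its group, and LacZ RNAi library C lay above Not1 RNAi library B. The log2 fold change of 1.19 ± 0.41 after Not1 RNAi per the authors' deposited table (adjusted p = 0.00989) became 0.53 ± 0.12 by limma without those 2 libraries (adjusted p = 0.000465). The call was lost under 11 of the 16 limma settings, with an adjusted p of 0.0642 on all libraries, 0.124 without LacZ RNAi library A, 0.172 without LacZ RNAi library B and 0.138 without Not1 RNAi library C alone. For Pop2 RNAi, 0.33 ± 0.41 per the authors' deposited table (adjusted p = 0.563) became 0.53 ± 0.11 without them (adjusted p = 0.000221). The Pum RNAi libraries had 6013, 6375 and 5998, and the log2 fold change of -0.32 ± 0.41 per the authors' deposited table did not pass (adjusted p = 0.85).

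The libraries that stood apart did not shift the 10 genes in 1 direction. In Not1 RNAi library C, sty lay 1.80 above the mean of libraries A and B on the log2 scale, pnt 1.47, aop 0.82 and Raf 0.59 above it. There Ras85D was at -1.36, rl at -1.13 and Dsor1 at -1.10 on that scale. In LacZ RNAi library C, Egfr was at -1.55, Sos at -0.93, rl at -0.92 and aop at -0.79, while sty was at 0.54. In Pum RNAi and Pop2 RNAi, library C stayed within 0.5 of the other 2 for all 10 genes. Without LacZ RNAi library C and Not1 RNAi library C, limma called 10 of the 10 higher after Not1 RNAi, where 36.6% of 7139 genes tested rose. It called 8 higher after Pop2 RNAi, where 33.3% rose. After Pum RNAi it called 3, Raf and Egfr higher and pnt lower, where 8.39% of genes were called, with Egfr at 0.43 ± 0.09 (adjusted p = 0.0119). On all libraries limma called 0 of the 10 after Pum RNAi (2 at an unadjusted p below 0.05), where 0.014% of genes were called, and the authors' DESeq2 called 1.

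**Figure D3:**
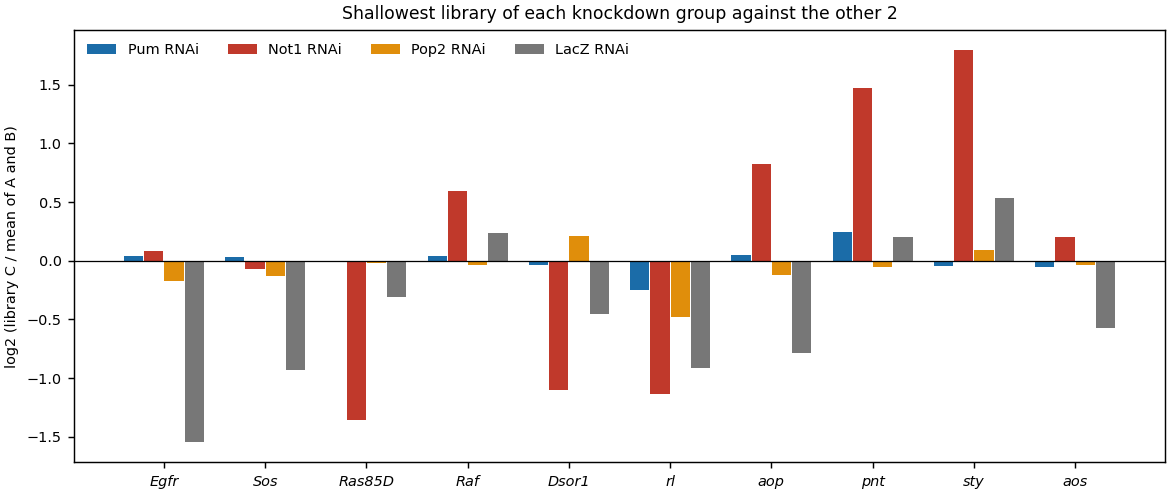
Log2 ratio of library C, the shallowest of each RNAi group, to the mean of libraries A and B for each of the 10 genes. Bars of Pum RNAi and Pop2 RNAi stay within 0.5 of 0, whereas Not1 RNAi reaches 1.80 for sty and LacZ RNAi -1.55 for Egfr.

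Whether Not1 and Pop2 depletion acted to different extents was tested on the difference of the 2 fold changes, which share the LacZ RNAi samples. None of the 10 differed by the deposited values after adjustment (1 at an unadjusted p below 0.05), where 1.27% of 9051 genes did, and limma on all libraries also called 0 (2 at an unadjusted p below 0.05), where 5.41% of genes were called. Egfr was higher after Not1 RNAi than after Pop2 RNAi by 0.87 ± 0.42 on the log2 scale, with a 95% interval from 0.05 to 1.70 and an adjusted p of 0.429 from the authors' deposited table. Without LacZ RNAi library C and Not1 RNAi library C, limma called 4 of the 10 higher after Not1 RNAi than after Pop2 RNAi, where 16.6% of genes were. They were Egfr at 0.85 ± 0.09 (adjusted p = 4.59e-06), Dsor1 at 0.71 ± 0.12 (adjusted p = 0.000176), Sos at 0.45 ± 0.09 (adjusted p = 0.000868) and aop at 0.32 ± 0.09 (adjusted p = 0.0142). For pnt and sty the same contrast was 0.01 ± 0.10 and -0.00 ± 0.11.

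Between the 2 knockout lines, which share the WT samples, 3 of the 10 genes differed, where 7.36% of 9925 genes did. Egfr was lower in PumKO1 than in PumKO2, by a difference of -0.60 ± 0.13 on the log2 scale (adjusted p = 0.000195, from the authors' deposited table). Aos was higher in PumKO1 by 0.98 ± 0.14 (adjusted p = 7.79e-11) and sty by 0.32 ± 0.09 (adjusted p = 0.0105), both from the authors' deposited table. For aop the difference was 0.06 ± 0.10, with a 95% interval from -0.14 to 0.25, and for Raf -0.05 ± 0.12, with an interval from -0.29 to 0.19. Pnt differed by 0.24 ± 0.11 without passing (adjusted p = 0.204, from the authors' deposited table), and limma on the recovered reads did call it (0.24 ± 0.07, adjusted p = 0.0193), making 4 of the 10 where 24.5% of 7460 genes were called.

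Pum RNAi and the Pum knockout lines were compared in the same way, across the separately normalized tables. Against PumKO1, 2 of the 10 differed, where 26.0% of genes did, and against PumKO2, 1 did, where 21.3% of genes did. Aop was lower after Pum RNAi by -1.06 ± 0.28 relative to PumKO1 (adjusted p = 0.00105) and by -1.01 ± 0.28 relative to PumKO2 (adjusted p = 0.00267), from the authors' deposited table. For aos the difference was -1.38 ± 0.20 relative to PumKO1 (adjusted p = 5.26e-10) and -0.40 ± 0.20 relative to PumKO2 (adjusted p = 0.152). For Raf it was -0.01 ± 0.20 relative to PumKO1, with an interval from -0.40 to 0.37, and -0.06 ± 0.20 relative to PumKO2, with an interval from -0.45 to 0.32. The 95% intervals of the other 7 genes included 0 in both contrasts.

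**Figure D4:**
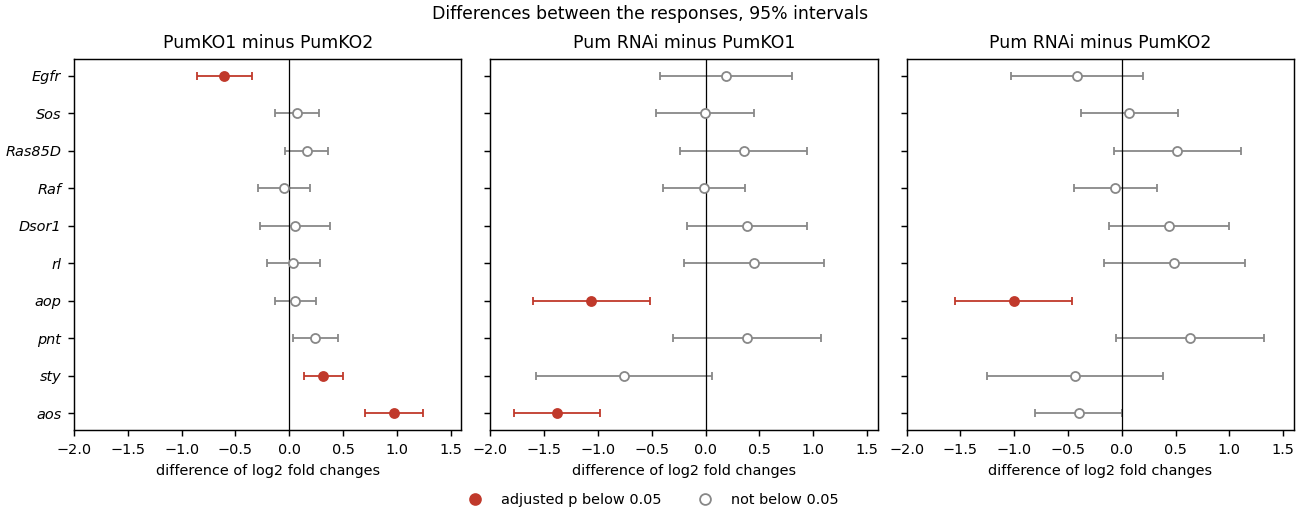
Differences between log2 fold changes of the 10 genes, with 95% intervals, for PumKO1 minus PumKO2 and for Pum RNAi minus each knockout line. Filled points have an adjusted p below 0.05: Egfr, sty and aos between the lines, aop and aos between Pum RNAi and PumKO1, and aop between Pum RNAi and PumKO2.

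The surroundings of the pathway were read from 7 lists with 64 other genes found in the tables. After Not1 RNAi 32 of 58 genes tested rose (55.2%) and 6 fell, and after Pop2 RNAi 22 rose (37.9%) and 4 fell, by the authors' adjusted p. Over all genes tested 25.7% rose and 24.2% fell after Not1 RNAi, and 18.8% rose and 20.1% fell after Pop2 RNAi. In PumKO1 21 of 60 rose (35.0%) and 19 fell (31.7%), where 22.9% of all genes rose and 25.5% fell. In PumKO2 15 rose (25.0%) and 19 fell (31.7%), where 21.3% rose and 23.5% fell. These shares of all genes are also the background of the counts for each list. None of 57 genes passed after Pum RNAi (3 at an unadjusted p below 0.05, and 0 by limma). Leaving out LacZ RNAi library C and Not1 RNAi library C, limma called 31 higher and 8 lower of 46 after Not1 RNAi, where 36.6% of all genes were higher and 35.1% lower. It called 30 higher and 7 lower after Pop2 RNAi, where 33.3% were higher and 32.3% lower, and 1 higher and 3 lower after Pum RNAi, where 8.39% were called in either direction.

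Of 7 adaptors and other proteins at the receptor, 6 rose after Not1 RNAi and 6 after Pop2 RNAi, with median log2 fold changes of 0.88 and 0.80. Cbl, a ubiquitin ligase that turns over activated receptors, averaged 1481 normalized counts after Not1 RNAi and 486 in LacZ RNAi, a log2 fold change of 1.59 ± 0.21 per the authors' deposited table (adjusted p = 1.7e-12), and its value after Pop2 RNAi was 1.02 ± 0.21 there. Shc, an adaptor, rose by 1.22 ± 0.21 after Not1 RNAi and 1.11 ± 0.20 after Pop2 RNAi, and drk, the adaptor that holds Sos, rose by 0.51 ± 0.11 and 0.57 ± 0.11, per the authors' deposited table. In PumKO1 3 of the 7 rose and 2 fell, and in PumKO2 1 rose and 3 fell, Shc falling in both (-0.62 ± 0.11 and -0.58 ± 0.11 per the authors' deposited table).

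Of 8 genes for Ras and Rap GTPases and their regulators, 5 rose after both Not1 RNAi and Pop2 RNAi, and none rose in a knockout line, where 4 fell in PumKO1 and 3 in PumKO2. The 5 were RapGAP1, vap, C3G, Rgl and Ras64B, of which Ras64B is itself a GTPase, and Rap1, Nf1 and Epac did not pass. RapGAP1, which switches off the GTPase Rap1, averaged 1666 normalized counts after Not1 RNAi and 836 after Pop2 RNAi, against 224 in LacZ RNAi. Its log2 fold changes were 2.90 ± 0.29 and 1.91 ± 0.29 per the authors' deposited table. In PumKO1 it averaged 218 and in PumKO2 458, against 557 in WT, with log2 fold changes of -1.37 ± 0.12 and -0.28 ± 0.11 per the authors' deposited table. Vap, a Ras GTPase-activating protein, fell in both lines (-0.65 ± 0.07 and -0.69 ± 0.07 per the authors' deposited table) and rose after Not1 RNAi (1.00 ± 0.24) and Pop2 RNAi (0.95 ± 0.24). C3G, an exchange factor for Rap1, rose after Not1 RNAi (1.52 ± 0.21) and Pop2 RNAi (0.70 ± 0.21) and fell in PumKO1 (-0.60 ± 0.10) and PumKO2 (-0.31 ± 0.10), per the authors' deposited table.

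Of 10 scaffold and chaperone genes of the kinase relay, 5 rose and 1 fell after Not1 RNAi, 3 rose after Pop2 RNAi, and 7 rose in each knockout line with 1 fall in PumKO1 and 2 in PumKO2. Cnk, a scaffold that binds Raf, rose by 0.62 ± 0.07 in PumKO1 and 0.63 ± 0.07 in PumKO2 (adjusted p = 3.72e-17 and 3.12e-17, authors' deposited table) and was the 1 that fell after Not1 RNAi (-0.41 ± 0.16). Sur-8, a scaffold of Ras and Raf, rose by 0.92 ± 0.17 after Not1 RNAi and 0.75 ± 0.16 after Pop2 RNAi and fell in PumKO1 (-0.66 ± 0.10) and PumKO2 (-0.59 ± 0.10), per the authors' deposited table. Ave, a small protein that links Cnk to Ksr, rose by 1.61 ± 0.38 after Not1 RNAi and 1.30 ± 0.37 after Pop2 RNAi, and by 0.41 ± 0.17 in PumKO1 and 0.44 ± 0.18 in PumKO2, per the authors' deposited table.

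Among 8 MAPK phosphatases and feedback inhibitors, 5 rose after Not1 RNAi, 3 after Pop2 RNAi, 4 in PumKO1 and 2 in PumKO2, with 2 falls in each knockout line. Socs36E, a suppressor of cytokine and EGF receptor signalling, averaged 6638 normalized counts in PumKO1 and 6480.0 in PumKO2, against 3922 in WT, and rose in both lines (0.76 ± 0.07 and 0.72 ± 0.07, authors' deposited table). Its paralog Socs44A fell in both (-0.67 ± 0.10 and -0.85 ± 0.10, authors' deposited table). Both paralogs rose after Not1 RNAi and Pop2 RNAi, Socs36E by 0.92 ± 0.20 and 0.50 ± 0.20 and Socs44A by 0.64 ± 0.13 and 0.54 ± 0.13 per the authors' deposited table. Mkp3, a phosphatase of the MAP kinase rl, rose in PumKO1 (0.49 ± 0.07, adjusted p = 1.82e-11, authors' deposited table) and was at 0.15 ± 0.07 in PumKO2 without passing. Kek1, a transmembrane inhibitor of Egfr, rose in PumKO1 (0.31 ± 0.08, adjusted p = 0.000167), in PumKO2 (0.57 ± 0.08, adjusted p = 5.73e-13) and after Not1 RNAi (1.55 ± 0.58, adjusted p = 0.0178), per the authors' deposited table.

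Of the ligand list, 2 genes rose and 2 fell after Not1 RNAi, 2 rose and 1 fell after Pop2 RNAi, 3 rose and 2 fell in PumKO1, and 1 rose and 2 fell in PumKO2. Star (S), which escorts the ligand precursor out of the endoplasmic reticulum, averaged 6674 normalized counts after Not1 RNAi and 3426 after Pop2 RNAi, against 994 in LacZ RNAi, log2 fold changes of 2.74 ± 0.29 and 1.78 ± 0.29 per the authors' deposited table, and rose in PumKO1 (0.39 ± 0.08). The ligand gene spi fell after Not1 RNAi (-0.56 ± 0.15) and rose in PumKO1 (0.56 ± 0.07), and the ligand gene vn rose in PumKO1 (0.95 ± 0.20) and PumKO2 (0.65 ± 0.21), per the authors' deposited table. Grk, a ligand known from the germline, fell in PumKO1 and PumKO2, with means of 27.2 and 31.9 normalized counts, against 166 in WT, and rose after Not1 RNAi (0.89 ± 0.25) and Pop2 RNAi (0.58 ± 0.24) per the authors' deposited table.

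Nuclear genes that read the signal rose in 7 of 10 cases after Not1 RNAi and in 2 after Pop2 RNAi, with 1 fall in each, and 3 rose and 4 fell in each knockout line. Jra, the Jun subunit of AP-1, rose by 1.86 ± 0.17 after Not1 RNAi and 1.13 ± 0.17 after Pop2 RNAi, and kay, its Fos partner, by 1.67 ± 0.30 and 1.13 ± 0.30, per the authors' deposited table. Edl, an antagonist of pnt and aop, averaged 137 normalized counts in PumKO1 and 155 in PumKO2, against 304 in WT. Its log2 fold changes per the authors' deposited table were -1.14 ± 0.15 and -0.97 ± 0.16 there, and 2.33 ± 0.60 after Not1 RNAi. Jra and kay also fell in both lines, Jra at -0.91 ± 0.12 and -0.48 ± 0.12 and kay at -0.46 ± 0.09 and -0.59 ± 0.09, per the authors' deposited table. The 3 that rose in each line were phyl, cic and Ets97D. Phyl averaged 57.0 normalized counts in PumKO1 and 43.4 in PumKO2, against 5.14 in WT. Its log2 fold changes per the authors' deposited table were 3.56 ± 0.49 in PumKO1 and 3.18 ± 0.49 in PumKO2. Those of cic were 0.47 ± 0.09 and 0.42 ± 0.09, and that of Ets97D was 0.57 ± 0.13 in both lines. Ets21C, another ETS factor, fell in PumKO1 (-2.04 ± 0.17), PumKO2 (-1.51 ± 0.16), after Not1 RNAi (-1.39 ± 0.39) and after Pop2 RNAi (-1.20 ± 0.37) per the authors' deposited table.

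Of the other receptor tyrosine kinases, 2 rose and 2 fell after Not1 RNAi, 1 rose and 2 fell after Pop2 RNAi, 1 rose and 4 fell in PumKO1, and 1 rose and 3 fell in PumKO2. Tie averaged 1988 normalized counts after Not1 RNAi and 605 after Pop2 RNAi, against 12.2 in LacZ RNAi, log2 fold changes of 7.31 ± 0.32 and 5.60 ± 0.32 per the authors' deposited table. In the knockout lines it averaged 6.19 in PumKO1 and 8.5 in PumKO2, against 59.6 in WT, and fell in both. Pvr, the PDGF/VEGF-type receptor of hemocytes, rose in PumKO1, with 12570.0 normalized counts there and 7872 in WT (0.67 ± 0.07, authors' deposited table), and was at 0.04 ± 0.07 in PumKO2 without passing.

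**Figure D5:**
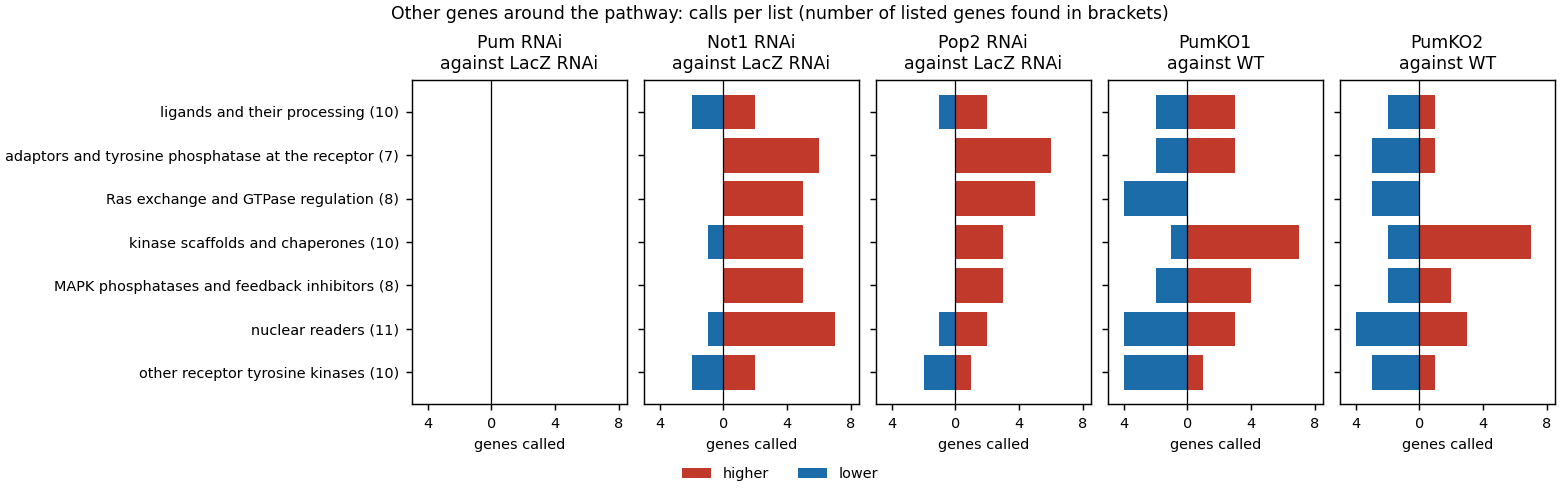
Number of genes called higher (right of 0) and lower (left of 0) in each of the 7 lists and 5 comparisons, by the authors' adjusted p below 0.05. No gene of any list is called after Pum RNAi, 32 are called higher and 6 lower after Not1 RNAi, and the list of Ras and Rap GTPases and their regulators has calls above 0 after Not1 RNAi and Pop2 RNAi and below 0 in the knockout lines.

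Markers of other cell types also moved with some groups. By the authors' adjusted p, all 5 epithelial markers were called higher after Not1 RNAi and after Pop2 RNAi, where 25.7% and 18.8% of all genes were. These calls include both libraries that stood apart. The library sums of the 5 were 8494 to 13980 normalized counts in Not1 RNAi and 6576 to 7458 in Pop2 RNAi, against 2545 to 3288 in LacZ RNAi. The sum of the hemocyte markers was 9571 to 10540 in PumKO1 and 18620 to 19670 in PumKO2, against 9025 to 10210 in WT, and PPO1, a crystal cell enzyme, led the list in PumKO2 at 7704 and was listed at 0 in WT. By the authors' adjusted p, 4 of 12 hemocyte markers tested rose and 7 fell in PumKO1, where 22.9% and 25.5% of all genes did. In PumKO2, 6 rose and 3 fell, where 21.3% and 23.5% did. Hml averaged 68.7 in PumKO1 and 202 in PumKO2, against 761 in WT. Crq averaged 313 and 306, against 1420, and He 194 and 257, against 917. Other markers of the list went the other way in both lines, srp at 6898 and 6012, against 4904, and ush at 2120 and 2396, against 1406. Col4a1 had 188 and 441, against 67.4, and vkg 196 and 377, against 28.9. In PumKO2 lz had 919 and PPO2 410, against 10.4 and 1.22 in WT. The sum of the 7 neuron markers averaged 2532 normalized counts in PumKO1 and 2005 in PumKO2, against 1256 in WT. Elav gave 1716 of it in PumKO1 and 1878 in PumKO2, against 1082 in WT, and futsch, a microtubule-binding protein of neurons, gave 789.6 in PumKO1 and 97.0 in PumKO2, against 138 in WT. The other 5 neuron markers had at most 21.2 in any group. By the authors' adjusted p, 2 of 7 neuron markers rose and 2 fell in PumKO1, and 1 rose and 1 fell in PumKO2. The shares of all genes given above for each line are the background. The median log2 fold change of the 7 was -0.64 in PumKO1 and -0.52 in PumKO2, against -0.07 and -0.04 over all genes tested. Piwi and aub led the germline list. The part of these marker changes in the results on the 10 genes was not tested. In bulk RNA, a change in the share of cells and a change in RNA per cell cannot be told apart.

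Across the 5 deposited log2 fold changes, the gene nearest to each of the 10 was sought by Euclidean distance. The search covered 4084 genes with at least 50 normalized counts in both tables. Genes named only by CG or CR and a number were left out, so a nearer gene among those would not be seen. Sos lay closest to another gene, EcR (the ecdysone receptor), at 0.13, followed by Dsor1 with Dop2R at 0.17, Ras85D with Gprk1 at 0.17 and rl with Mtpbeta at 0.18. Sty lay nearest to enc at 0.23, Raf to Coq7 at 0.28, aop to arc (a) at 0.35, pnt to Vps15 at 0.38 and aos to wde at 0.41. Egfr lay nearest to mam (mastermind) at 0.43. Among the 10 themselves, Egfr and aop were each other's nearest member, at 0.92, each 8th in the other's order, and rl and Ras85D were nearest to each other at 0.39. These distances describe 5 values per gene that share controls and libraries.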

How the data were processed

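Poly(A) RNA of 21 DL1 samples was made into ClickSeq libraries, in which azido-nucleotides end reverse transcription and the adapter is click-ligated, per the labels' protocols. Per the labels, the submitters' processing notes name fastp 0.14.1, HISAT2 2.1.0, UMI-tools 1.0.1, featureCounts, DESeq2 1.23.110 and the build dm6, without settings. The authors deposited 2 tables, normalized separately. Per the file headers, each signal column averages a group's normalized counts, also given per kb of gene length. The authors deposited DESeq2 fold changes and their SEs on the log2 scale, with the p-value of the Wald test, raw and adjusted. Lines without a gene (7 per table, 0.0311% to 0.0742% of the normalized counts) were left out.

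The main tests are the authors' own, called at an adjusted p below 0.05. Differences between comparisons are differences of deposited log2 values over the root of the summed squared SEs, with Benjamini-Hochberg adjustment over all genes. Shared controls make that error too wide. Whole reads were recovered where only 1 set of 3 whole numbers gave the 15-digit deposited mean (99.26% to 99.72% of genes above 0, holding 75.34% to 85.76% of normalized counts). Genes with means over 20000 were not tried. Limma 3.58.1 (R 4.3.3) was run on log2(normalized count + 1) of genes with a mean of at least 10, after a test on simulated data. These genes were recovered in every group of their experiment. Scaling by total reads used the summed reads of these genes alone, not all reads of a library. Sequences were not used here, and the Pumilio motif was not searched. 3′UTR lengths and exon overlaps come from the BDGP6 annotation, in which 99.9% of genes shared start and end with the tables. Named genes are the 10, the targets, markers, nearest genes and a selection from the pathway lists. That selection was drawn from the 3 called genes per list and comparison with the smallest p, not all of which are named. Rgl, cic and Ets97D ranked lower among the called genes of their lists, and Rap1, Nf1 and Epac were named as not passing. The members and lists were chosen with earlier results of these data known, so they are not independent support.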

Additional observations from a re-analysis of the deposited data

Results flagged for a closer look

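Tests of the difference between 2 effects drew attention to 6 results. Between the knockout lines, Egfr differed by -0.60 ± 0.13 (PumKO1 minus PumKO2, log2 scale, adjusted p = 0.000195), sty by 0.32 ± 0.09 (adjusted p = 0.0105) and aos by 0.98 ± 0.14 (adjusted p = 7.79e-11), in all 3 genes with no overlap between the libraries of the lines. Between Pum RNAi and PumKO1, aop differed by -1.06 ± 0.28 (adjusted p = 0.00105) and aos by -1.38 ± 0.20 (adjusted p = 5.26e-10), and between Pum RNAi and PumKO2, aop differed by -1.01 ± 0.28 (adjusted p = 0.00267). All are differences of log2 fold changes in the authors' deposited tables, with Benjamini-Hochberg adjustment over all genes. The knockdown and the knockouts differ in duration, method, control and table, which cannot be told apart.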

How the results depend on the processing

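No paired analysis was possible because neither the deposited columns nor the recovered libraries carry replicate numbers. Of the 50 log2 fold changes of the 10 genes, all 50 lay within 1 SE of the deposited value as ratios of the deposited means, which have no test. Direction and side of the threshold were kept in 47 under limma on all libraries, 47 with a pseudocount of 5 and 43 with scaling by total reads. That scaling shifted the median of all genes by 0.16 after Pum RNAi, -0.15 after Not1 RNAi and 0.10 after Pop2 RNAi. The direction turned in 5 values, none called by the authors. Aop after Pum RNAi was -0.16 without LacZ RNAi library C, with or without Not1 RNAi library C, and -0.16 to 0.24 over single left-out libraries. Scaled by total reads, aos after Pum RNAi was 0.13 and Ras85D after Not1 RNAi -0.0018, and over single left-out libraries they ran from -0.22 to 0.083 and from -0.13 to 0.60. Over left-out libraries in PumKO1, Dsor1 ran from -0.081 to 0.040 and rl from -0.077 to 0.006.

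The count of called genes among the 10 after Pum RNAi was 1 as deposited, 0 at an adjusted p below 0.01, 0 under limma on all libraries, with a pseudocount of 5 or with scaling by total reads, 0 to 1 over single left-out libraries and 3 without LacZ RNAi library C and Not1 RNAi library C together. Of 7139 genes in limma, 0 to 24 were called over single left-out libraries and 599 without both. The 7 called after Pop2 RNAi became 4 to 7 over left-out libraries, with 4 when any Pop2 RNAi library was left out, and 8 without both libraries that stood apart. Over all 7139 genes, limma called 2015 to 3646 over left-out libraries and 4683 without both. The 8 after Not1 RNAi became 6 to 9, where 3599 to 4167 of all genes were called, and 10 without both, where 5116 were. In both knockout lines 7 were called whichever library was left out. Among 7460 genes, 4544 to 4870 were called in PumKO1 and 4193 to 4678 in PumKO2. The difference between Not1 RNAi and Pop2 RNAi was called in 0 to 2 genes over left-out libraries, 2 without LacZ RNAi library C and 1 without Not1 RNAi library C, and in 4 without both. Over all 7139 genes, limma called 62 to 1234 over left-out libraries. It called 1234 without LacZ RNAi library C, 397 without Not1 RNAi library C and 2275 without both. The difference between PumKO1 and PumKO2 was called in 3 to 4 over left-out libraries, where 1343 to 2075 of 7460 genes were called. Of the 7 pathway lists, 4 genes were called after Pum RNAi without both libraries, and 0 by the deposited values or by limma on all libraries. The lists were not read under the other settings. The cause of these changes was not tested.

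Counts were low in places, since Not1 RNAi library C had 40 Dsor1 reads and LacZ RNAi library C had 43 Egfr reads. The differences between comparisons under other settings, and the lists without the 2 libraries, were chosen after seeing the data. The 2 libraries themselves were singled out by correlations within these same data. Leaving both out raised the genes called by limma from 3883 to 5116 after Not1 RNAi. The calls went from 2795 to 4683 after Pop2 RNAi and from 1 to 599 after Pum RNAi. Adjusted p-values without both libraries are therefore not independent support.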
